A study of Homo sapiens with 6 samples.

Results

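Genes for subunits of potassium channels were followed from undifferentiated human embryonic stem cells (hESCs) to neuromesodermal-like progenitors (NMP-L cells). Members were the rows of the gene table whose symbol begins with KCN, goes on with 1 or 2 class letters and ends in a number, with or without a last letter. Symbols with a hyphen, such as those of antisense transcripts, were not included. There were 96 such genes among 27672 in the table. The symbol rule itself used no measured value, but the members were chosen with earlier results of these data known.

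Polyadenylated RNA was sequenced from 3 replicate libraries of hESCs at day 0 and 3 of NMP-L cells at day 3, all from H9, an established human embryonic stem cell line, so that both groups are 1 line. Per the labels, hESCs grew untreated without feeder cells on fibronectin in DEF medium, to which bFGF (30 ng/ml) and the BMP inhibitor Noggin (10 ng/ml) were added, while the study's methods name another medium and coating. NMP-L cells were made from hESCs over 3 days in N2/B27 basal medium that held CHIR99021 (3 µM), a GSK3 inhibitor that activates Wnt signalling, beside bFGF (20 ng/ml), and the methods add inhibitors of BMP and TGF-beta signalling from day 2. Day and medium therefore differ together between the groups and cannot be told apart. The labels call the libraries biological replicates and say nothing of separate cultures, so p-values measure the spread between these libraries.

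Potassium channels let potassium ions leave or enter the cell down their electrochemical gradient and set the resting membrane potential. Voltage-gated (Kv) channels open on depolarisation and are tetramers of one or several alpha subunits, some of which are electrically silent and act only in mixed tetramers. Inward rectifiers pass current most easily into the cell, tandem pore (K2P) channels give the background leak, and calcium- or sodium-activated channels follow the ions inside the cell. Auxiliary subunits do not form the pore and change the gating, trafficking or inactivation of the channels. In embryonic cells these genes are studied for their part in membrane potential, volume control and the cell cycle, besides their known roles in nerve and muscle.

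Library totals lay between 19454543 and 23036426 expected counts, so that 3 counts, the floor used here, equal 0.130 to 0.154 CPM (counts scaled to the library total). The 4 markers of undifferentiated hESCs examined were all lower in NMP-L cells, among them NANOG at 93.1 against 16.5 TPM (transcripts scaled to gene length and library), and 4 of the 5 tested NMP-L markers were higher, among them CDX2 at 0.0133 against 20.3 TPM. SOX2 did not pass the test and FGF8 was too low to be tested. Markers of other cells moved as well. Neural crest markers summed to 94.6 to 104.7 TPM in hESCs and 27.1 to 33.9 in NMP-L cells (3 of 3 tested lower), and neuronal markers to 303.0 to 327.3 and 181.7 to 199.5 TPM (4 of 7 tested lower, MAP2 higher). Cardiac muscle markers were low throughout, with sums of 8.19 to 10.1 and 1.17 to 2.90 TPM and MYH6, MYH7 and NKX2-5 at or near 0. Of 5 endoderm markers FOXA2 alone was tested and higher, at 0.103 against 17.2 TPM, with SOX17 at 0.0167 and 0.0133 TPM. The part of these cell types in the results was not tested, and in bulk RNA fewer cells that express a gene and less of its RNA per cell cannot be told apart.

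More potassium channel genes were lower than higher in NMP-L cells. Of the 96 members, 56 passed the filter on low counts and 42 of these differed between the groups (edgeR quasi-likelihood test, Benjamini-Hochberg adjusted p under 0.05 over all genes tested), beside 55.8% of all 15517 genes tested. The 16 members that were higher made up 28.6% of those tested, beside 29.1% of all genes. The 26 that were lower made up 46.4%, beside 26.7%. Changes of at least 2-fold were found in 28 members, 10 of them higher and 18 lower, where 18.6% of all tested genes changed by at least 2-fold, 9.38% higher and 9.18% lower.

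Fold changes of the tested members were, at the median, below 0 and larger in size than those of all genes. The median log2 fold change (NMP-L minus hESC) was -0.50 over the tested members and 0.03 over all genes, and the median of its absolute size was 0.95 and 0.40. CPM of the 2 groups did not overlap in 46 of 56 members, beside 62.7% of all tested genes. Members were counted less than most genes, with a median CPM of 3.11 over those tested against 21.2 over all. Of the 56, 9 passed the filter through 1 group alone, their other group lying under the filter's level in each library. All 9 differed, each by at least 2-fold. KCNH1, KCNJ5, KCNH5 and KCNV1 were higher, and KCNAB1, KCNAB3, KCNB2, KCNH4 and KCNK17 lower. The filter favours a large difference in such genes, so the 2-fold counts given above cannot be read apart from it. The same holds for the counts given below of classes that hold such genes. Of the other 47, 33 differed. None of the 42 called members changed direction in any alternative that tested it.

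**Figure D1:**
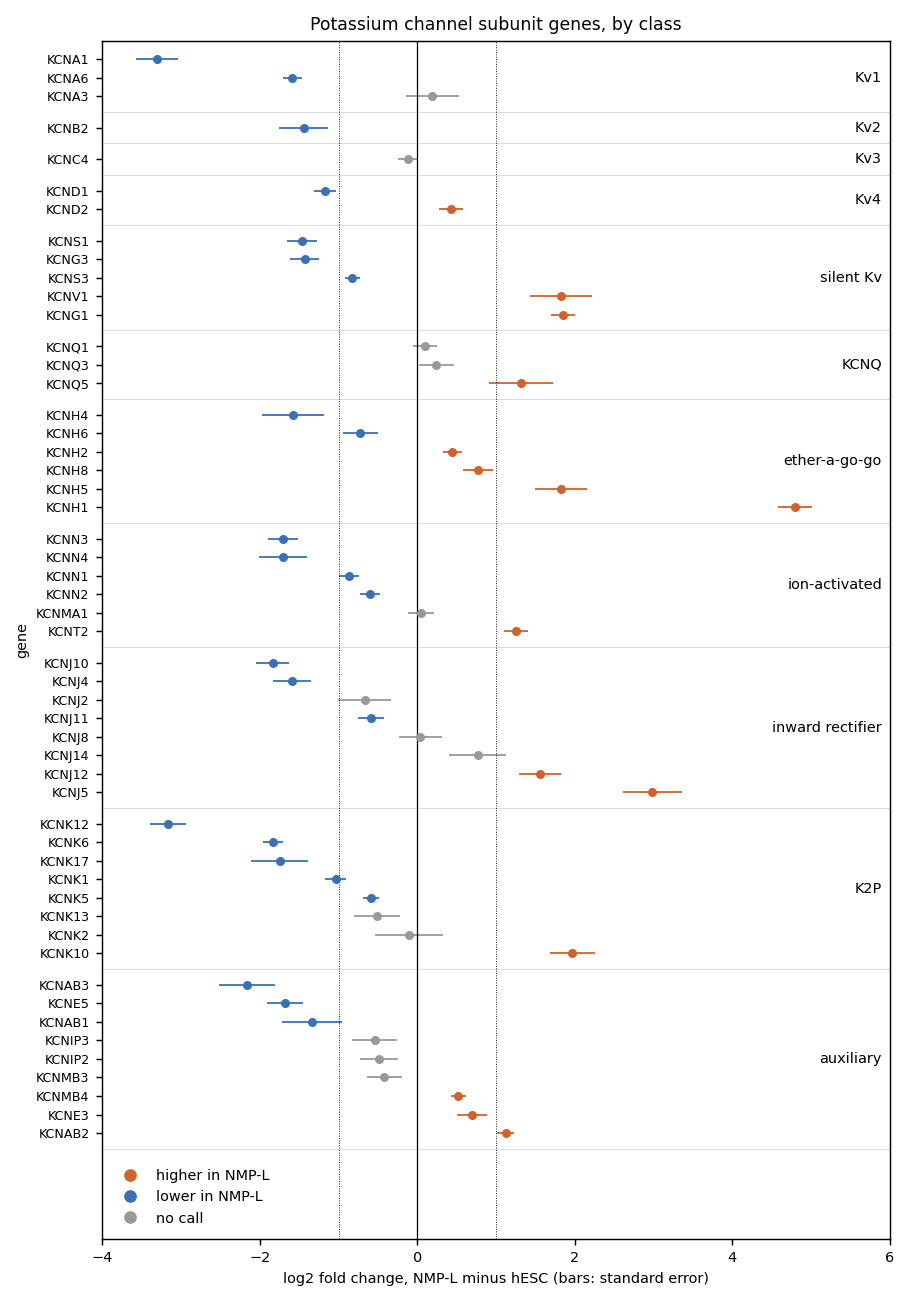
Log2 fold change of 52 of the 56 tested potassium channel subunit genes (x axis, NMP-L minus hESC, bars show the standard error), grouped by class and ordered by size, with dotted lines at 2-fold. Orange genes were higher, blue genes lower and grey genes did not pass the test. KCNH1 at 4.80 and KCNJ5 at 2.98 lie farthest to the right, and KCNA1 at -3.31 and KCNK12 at -3.16 farthest to the left.

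The largest rise was that of KCNH1, which encodes the founding channel of the ether-a-go-go class, voltage-gated channels known in brain and in proliferating cells. It had 6, 6 and 5 expected counts in hESCs and 177, 191 and 198 in NMP-L cells. Its level went from 0.0767 ± 0.0058 to 2.26 ± 0.16 TPM (SD, n = 3 each), a log2 fold change of 4.80 ± 0.22 (SE, adjusted p = 1.2e-08) or 27.9-fold. KCNH1 was thus near the floor in every hESC library and well above it in every NMP-L library. KCNJ5, a G protein-gated inward rectifier subunit of the heart atrium and adrenal cortex, had 4, 3 and 2 counts in hESCs and 26, 30 and 30 in NMP-L cells. The fitted log2 fold change of KCNJ5 was 2.98 ± 0.37 (adjusted p = 4.1e-05), and its NMP-L level was 0.973 ± 0.096 TPM. KCNJ3, which encodes the usual partner of KCNJ5 in atrial channels, was too low to be tested, with 9, 2 and 5 counts in hESCs and 1, 4 and 2 in NMP-L cells.

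The largest falls were those of KCNA1 and KCNK12. KCNA1, a Kv1 channel of axons, had 78, 70 and 91 counts in hESCs and 12, 6 and 10 in NMP-L cells, a log2 fold change of -3.31 ± 0.27 (adjusted p = 1.2e-06). KCNK12, a K2P subunit of the halothane-inhibited pair with KCNK13, had 125, 141 and 167 counts in hESCs and 18, 24 and 14 in NMP-L cells, with a log2 fold change of -3.16 ± 0.23 (adjusted p = 5.4e-07). The groups did not overlap in either gene. Both were low in NMP-L cells, but their starting levels differed, since hESCs held 1.05 ± 0.16 TPM of KCNA1 and 11.3 ± 1.6 TPM of KCNK12.

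To show the start regions of members that moved most in opposite directions, the bases before the start are printed for the 2 largest rises and the 2 largest falls with an entry in the RefSeq promoter table (GRCh38.p14), each placed on GRCh37 by an exact match. Capitals mark GC boxes (GGGCGG or its complement CCGCCC), to which factors of the SP family bind. KCNH1 lies at chr1:211307491-211307740 on the minus strand, KCNJ5 at chr11:128761001-128761250 on the plus strand, KCNJ10 at chr1:160039951-160040200 on the minus strand and KCNK6 at chr19:38810235-38810484 on the plus strand.
KCNH1: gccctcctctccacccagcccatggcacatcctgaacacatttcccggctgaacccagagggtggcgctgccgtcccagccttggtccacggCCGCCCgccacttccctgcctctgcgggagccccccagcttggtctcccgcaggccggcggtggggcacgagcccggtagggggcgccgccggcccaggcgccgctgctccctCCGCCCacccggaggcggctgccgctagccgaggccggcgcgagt
KCNJ5: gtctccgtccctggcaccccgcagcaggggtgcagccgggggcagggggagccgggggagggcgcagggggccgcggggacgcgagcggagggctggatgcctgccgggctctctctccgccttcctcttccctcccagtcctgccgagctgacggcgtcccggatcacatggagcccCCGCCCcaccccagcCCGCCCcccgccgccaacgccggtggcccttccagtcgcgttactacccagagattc
KCNJ10: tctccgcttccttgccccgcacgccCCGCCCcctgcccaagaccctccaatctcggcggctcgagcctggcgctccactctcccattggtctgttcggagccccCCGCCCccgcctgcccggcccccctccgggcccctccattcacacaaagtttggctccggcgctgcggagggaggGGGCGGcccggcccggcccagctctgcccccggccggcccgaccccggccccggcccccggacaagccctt
KCNK6: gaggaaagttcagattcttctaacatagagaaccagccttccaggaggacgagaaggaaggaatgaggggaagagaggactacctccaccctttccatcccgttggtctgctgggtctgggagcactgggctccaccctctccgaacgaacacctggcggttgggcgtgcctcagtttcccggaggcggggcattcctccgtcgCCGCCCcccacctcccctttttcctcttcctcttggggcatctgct
The 4 hold 2, 2, 3 and 1 GC boxes. With 50 bases after the start counted in, their GC content is 76.0%, 72.7%, 74.7% and 61.0%. The median over tested genes is 65.3%, so KCNK6 lies under it and the others above it.

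Of the 96 members, 71 had an entry in that table, with 250 bases before and 50 after the start. In either orientation a GC box stood in 9 of 11 promoters of members that were higher and in 13 of 18 of those that were lower, as in 7 of 11 of tested members without a call, beside 44.6% of all 27305 promoters and 69.5% of the 11587 of tested genes. The Wnt-responsive TCF/LEF core CTTTGA was in 2 of 11 and 2 of 18, and in 3 of 11 without a call, beside 13.1% of all promoters and 8.54% of those of tested genes. The octamer ATGCAAAT, read by POU factors, was in 1 of 11, 0 of 18 and, without a call, 0 of 11 (1.80% of all promoters and 1.33% of those of tested genes), and the E-box CANNTG in 4 of 11, 12 of 18 and 7 of 11 (68.9% and 60.7%). The median GC content was 72.7% in promoters of higher members, 66.5% in those of lower members, 67.0% in those of tested members without a call, 61.3% in those of members too low to be tested and 65.3% over tested genes. No overlap between motifs was removed, and the matches are a description of these windows.

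In the Kv1 to Kv4 classes falls were more frequent than rises. The KCNQ and ether-a-go-go classes, also voltage-gated, are given apart below and do not enter this count. Of 17 genes of the Kv1 to Kv4 classes 9 were tested, of which 2 were higher and 4 lower. Of all tested genes 29.1% were higher and 26.7% lower. KCNA6, the most abundant of the Kv1 class, had 290.0, 304.8 and 280.8 expected counts in hESCs and 117.2, 109.5 and 114.5 in NMP-L cells (log2 fold change -1.59 ± 0.12, adjusted p = 5.9e-07). Its level was 5.17 ± 0.18 TPM in hESCs and 1.84 ± 0.04 in NMP-L cells, with no overlap between the groups. KCNA3, known from T lymphocytes, did not pass the test (0.19 ± 0.34, adjusted p = 0.65). KCNB2, a Kv2 delayed rectifier, had 22, 19 and 29 counts in hESCs and 9, 10 and 11 in NMP-L cells (-1.44 ± 0.31, adjusted p = 0.0021).

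The A-type Kv4 class also split. KCND1 had 301, 393 and 397 counts in hESCs and 211, 170 and 184 in NMP-L cells, a log2 fold change of -1.17 ± 0.14 (adjusted p = 2.3e-05). KCND2, the main A-type channel of dendrites, had 194, 141 and 179 and then 234, 270 and 309 counts (0.43 ± 0.15, adjusted p = 0.029). KCND1 was thus the more abundant of the pair in hESCs, at 8.16 ± 1.01 TPM against 3.42 ± 0.66, and KCND2 had the higher mean in NMP-L cells, at 4.92 ± 0.66 against 3.87 ± 0.35. The rise of KCND2 did not pass with the replicate block (0.43, adjusted p = 0.053) or without hESC replicate 2 or 3 (0.29 and 0.45) or NMP-L replicate 2 or 3 (0.39 and 0.38). The Kv3 gene KCNC4, a channel of fast-spiking neurons, did not pass the test (-0.12 ± 0.13, adjusted p = 0.46).

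The electrically silent subunits kept nearly the same summed level while its make-up turned over. Of 10 such genes 5 were tested, and all 5 were called, beside 55.8% of all tested genes. KCNG1 and KCNV1 were higher and KCNS3, KCNS1 and KCNG3 lower. KCNV1 passed the filter through NMP-L cells alone, which favours a large difference, so the count of 5 cannot be read apart from the filter. KCNG1, a modifier of Kv2 channels, had 72, 112 and 87 counts in hESCs and 404, 350 and 392 in NMP-L cells (1.85 ± 0.15, adjusted p = 1.1e-06), and its level went from 4.40 ± 0.82 to 17.1 ± 0.7 TPM. KCNS3, also a partner of Kv2 channels, had 461, 489 and 488 and then 335, 293 and 324 counts (-0.82 ± 0.10, adjusted p = 3.5e-05), from 22.1 ± 0.4 to 13.4 ± 0.5 TPM. KCNS3 was the higher of the 2 in each hESC library and KCNG1 in each NMP-L library. KCNG3 had 176, 138 and 158 and then 53, 61 and 92 counts (-1.43 ± 0.19, adjusted p = 6.2e-05), and KCNS1 103, 83 and 92 and then 35, 43 and 40 (-1.46 ± 0.19, adjusted p = 6.1e-05). KCNV1 was low, with 5, 3 and 5 counts in hESCs and 23, 15 and 17 in NMP-L cells (1.82 ± 0.39, adjusted p = 0.0021). The summed TPM of the class was 33.5 ± 0.5 in hESCs and 33.5 ± 0.8 in NMP-L cells.

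The ether-a-go-go class was the one with the largest relative gain. Of 8 genes 6 were tested, 4 of them higher and 2 lower, beside 29.1% and 26.7% of all tested genes. Beside KCNH1, its close relative KCNH5 went from 8, 5 and 5 counts in hESCs to 25, 24 and 27 in NMP-L cells (1.83 ± 0.33, adjusted p = 6.2e-04). KCNH2, the channel of the rapid delayed rectifier current of the heart, had 531, 664 and 613 and then 1100, 814 and 972 counts (0.45 ± 0.12, adjusted p = 0.0064). It carried most of the class's level, at 18.3 ± 1.0 TPM in hESCs and 25.9 ± 3.1 in NMP-L cells. KCNH8, of the elk branch, had 80, 85 and 93 and then 197, 115 and 208 counts (0.77 ± 0.19, adjusted p = 0.0045). The other elk gene tested, KCNH4, was lower, with 11, 20 and 13 and then 7, 4 and 6 counts (-1.58 ± 0.40, adjusted p = 0.0054). KCNH6, of the erg branch like KCNH2, had 50, 68 and 72 and then 50, 46 and 38 counts (-0.72 ± 0.22, adjusted p = 0.015), and this call was lost on log2 TPM (-0.53) and without hESC replicate 3 (-0.64) or NMP-L replicate 3 (-0.57). The erg and elk branches thus each held a gene that rose and one that fell, while KCNH1 and KCNH5 of the eag branch both rose. KCNH1 and KCNH5 passed the filter through NMP-L cells alone and KCNH4 through hESCs alone. The filter favours a large difference in such genes, so neither the class count nor the branches can be read apart from it.

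In the KCNQ class, which carries the M-current of neurons, KCNQ3 was at 0.393 ± 0.085 TPM in hESCs and 0.50 ± 0.08 in NMP-L cells and did not pass the test (0.24 ± 0.22, adjusted p = 0.38). KCNQ5 had 10, 4 and 5 and then 17, 22 and 17 counts (1.32 ± 0.40, adjusted p = 0.016). That call was lost with DESeq2 (1.32, adjusted p = 0.058) and without hESC replicate 2 (1.06), hESC replicate 3 (1.16) or NMP-L replicate 2 (1.14). KCNQ1, the heart and epithelial member, did not pass the test (0.10 ± 0.16, adjusted p = 0.62).

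**Figure D2:**
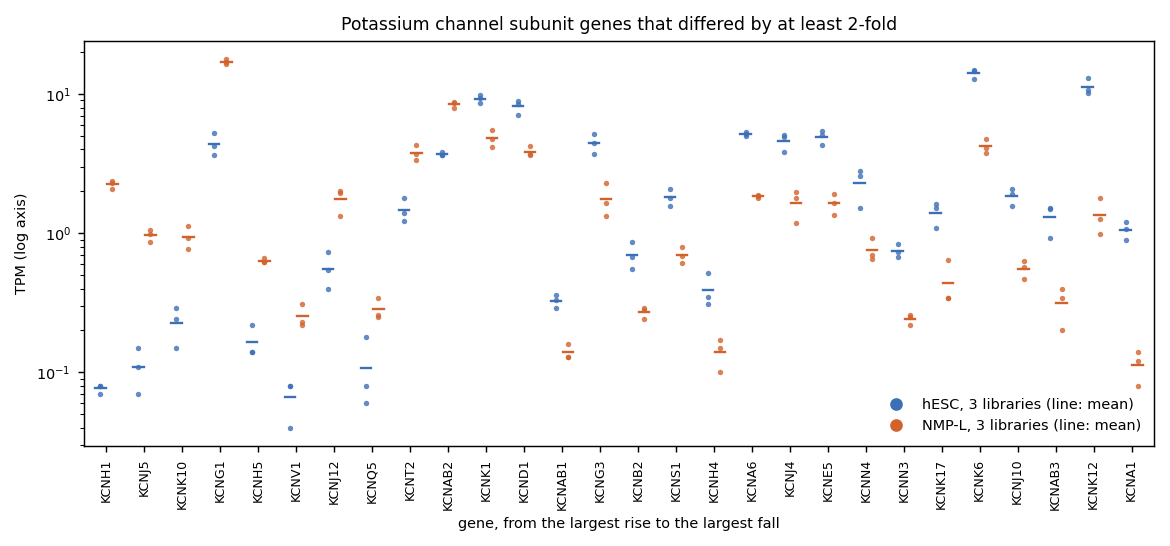
TPM (y axis, log scale) of the 28 potassium channel subunit genes that differed by at least 2-fold, ordered from the largest rise to the largest fall. Each dot is 1 of 3 libraries of hESCs (blue) or NMP-L cells (orange) and the line their mean. The 2 groups are apart for every gene shown, and KCNG1 at 17.1 TPM is the highest in NMP-L cells.

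The 4 small- and intermediate-conductance calcium-activated channel genes were all lower in NMP-L cells. Of 8 genes of the ion-activated class 6 were tested, 1 higher and 4 lower, beside 29.1% and 26.7% of all tested genes. KCNN1 had 278, 365 and 321 counts in hESCs and 221, 203 and 193 in NMP-L cells (-0.87 ± 0.13, adjusted p = 1.8e-04), and KCNN2 173, 184 and 185 and then 150, 122 and 147 (-0.60 ± 0.12, adjusted p = 0.0014). KCNN3 had 81, 109 and 90 and then 31, 34 and 35 counts (-1.71 ± 0.19, adjusted p = 1.8e-05). KCNN4, the intermediate-conductance channel of red cells and lymphocytes, had 30, 55 and 58 and then 16, 20 and 15 counts (-1.70 ± 0.31, adjusted p = 6.0e-04). The groups did not overlap for any of the 4, as in 62.7% of all tested genes. KCNMA1, the pore of the large-conductance calcium-activated channel, did not pass the test (0.05 ± 0.16, adjusted p = 0.82). The sodium-activated KCNT2 went the other way, with 101, 73 and 80 counts in hESCs and 213, 222 and 277 in NMP-L cells (1.25 ± 0.16, adjusted p = 4.0e-05).

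Inward rectifiers were mostly low, and 8 of 16 could be tested. Of these 2 were higher and 3 lower, beside 29.1% and 26.7% of all tested genes. KCNJ10, which clears potassium around neurons in glial cells, had 92, 108 and 79 counts in hESCs and 26, 33 and 32 in NMP-L cells (-1.84 ± 0.21, adjusted p = 1.7e-05). KCNJ4, of the strongly rectifying group, had 70, 91 and 93 and then 40, 35 and 23 counts (-1.59 ± 0.24, adjusted p = 1.8e-04). KCNJ12, of the same group, went the other way, with 19.2, 27.6 and 36.0 expected counts in hESCs and 107.0, 104.1 and 74.4 in NMP-L cells (1.56 ± 0.27, adjusted p = 4.1e-04). Reads of KCNJ12 are shared with the near-identical KCNJ18, and the 2 genes together held 29, 33 and 39 and then 107, 111 and 75 counts. KCNJ2, also of that group, had 20, 18 and 15 and then 8, 14 and 17 counts and did not pass the test (-0.67 ± 0.34, adjusted p = 0.11). KCNJ14 and KCNJ8 did not pass it either (0.77 ± 0.36 and 0.04 ± 0.27, adjusted p = 0.091 and 0.91).

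Pore and receptor of the ATP-sensitive channel of beta cells and neurons were both lower. KCNJ11, its pore, which at 4.44 ± 0.20 TPM was close to KCNJ4 (4.62 ± 0.69) in hESCs and led the inward rectifiers in NMP-L cells (3.22 ± 0.82 TPM), had 126, 143 and 136 counts in hESCs and 123, 77 and 117 in NMP-L cells (-0.59 ± 0.16, adjusted p = 0.0095), a call lost on log2 TPM (-0.48, adjusted p = 0.068). ABCC8, its sulfonylurea receptor, had 53, 48 and 71 and then 47, 23 and 28 counts (-1.04 ± 0.28, adjusted p = 0.0080). In both genes NMP-L replicate 1 lay closest to the hESC libraries. ABCC9, the other receptor, had at most 3 counts in any library, so that its level was at or under the floor throughout.

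The K2P channels lost more than any other class. Of 15 genes 8 were tested, 1 higher and 5 lower, beside 29.1% and 26.7% of all tested genes. The summed level of the class went from 60.1 ± 3.6 to 28.4 ± 0.2 TPM. KCNK6 had 305, 372 and 364 counts in hESCs and 112, 98 and 132 in NMP-L cells (-1.84 ± 0.13, adjusted p = 3.6e-07), from 14.1 ± 1.1 to 4.23 ± 0.50 TPM. KCNK1, of the same weakly rectifying group as KCNK6, had 188, 177 and 186 and then 105, 87 and 124 counts (-1.03 ± 0.13, adjusted p = 5.3e-05). In TPM the largest losses of the class were those of KCNK12, from 11.3 ± 1.6 to 1.35 ± 0.42, and KCNK6. KCNK5, an alkaline-activated channel, fell less in fold, from 20.7 ± 0.6 to 14.8 ± 0.7 TPM (-0.59 ± 0.10, adjusted p = 3.6e-04). In TPM it lost more than KCNK1, which went from 9.27 ± 0.63 to 4.83 ± 0.69. KCNK5 was the leading K2P gene in both groups. KCNK17, also alkaline-activated, had 22, 16 and 23 and then 10, 5 and 6 counts (-1.75 ± 0.36, adjusted p = 0.0016).

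Against this direction KCNK10, a stretch- and lipid-sensitive K2P channel, had 10, 18 and 20 counts in hESCs and 74, 84 and 62 in NMP-L cells (1.97 ± 0.28, adjusted p = 1.1e-04). Even so its NMP-L level was only 0.943 ± 0.180 TPM. Its close relative KCNK2 was near the lower limit of the test, with 10, 15 and 7 and then 7, 9 and 19 counts, and did not pass it (-0.10 ± 0.43, adjusted p = 0.85). KCNK13, the relative of KCNK12, was at -0.51 ± 0.29 (adjusted p = 0.16).

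**Figure D3:**
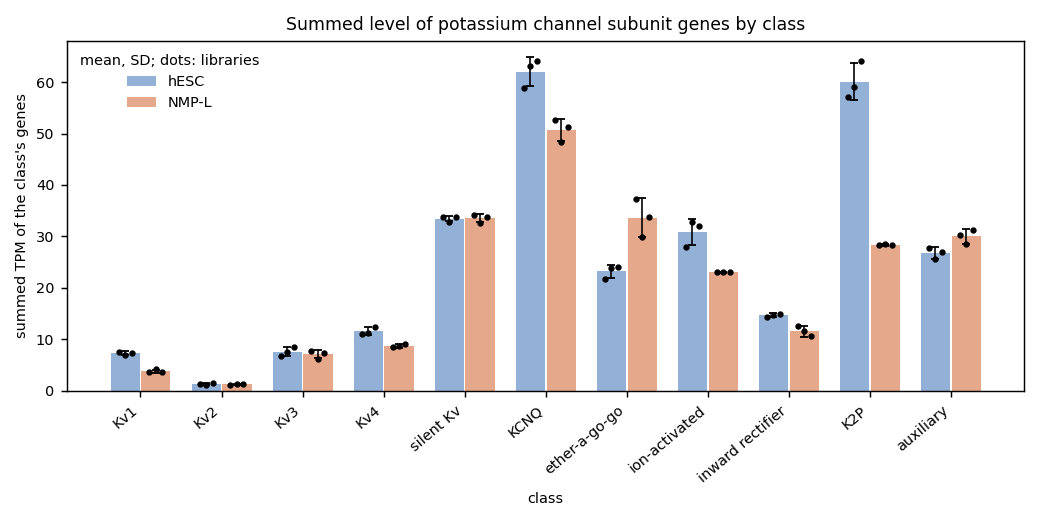
Summed TPM of the genes of each class (y axis, from 0), as the mean of 3 libraries with SD (bars) and the libraries themselves (dots), in hESCs (blue) and NMP-L cells (orange). K2P channels drop from 60.1 to 28.4 TPM, ether-a-go-go channels go from 23.2 to 33.7 TPM, and the silent subunits stay at 33.5 TPM.

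Over all 96 members the summed level was 279.2 ± 10.97 TPM in hESCs and 232.1 ± 8.5 in NMP-L cells, a ratio of 0.831. The K2P share of this sum went from 21.5% to 12.3% and the ether-a-go-go share from 8.31% to 14.5%. The Kv1 sum went from 7.36 ± 0.32 to 3.83 ± 0.31 TPM, the KCNQ sum from 62.0 ± 2.7 to 50.7 ± 2.2 and the ion-activated sum from 30.9 ± 2.6 to 23.1 ± 0.1. The libraries of the groups did not overlap in these sums. Kv2, Kv3 and silent-subunit sums overlapped between the groups. These sums are given without a test, since an exact permutation test of 3 against 3 libraries cannot give a two-sided p under 0.1.

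A few genes held most of this level. The 5 most abundant members held 46.8% of the summed TPM in hESCs and 49.9% in NMP-L cells, and the 10 most abundant 65.3% and 66.5%. KCNS3, KCNK5 and KCNH2 were among the first 5 in both groups. KCNK6 was among them in hESCs alone and KCNG1 in NMP-L cells alone, where KCNG1 ranked between KCNH2 and KCNK5. KCNH2 at 25.9 ± 3.1 TPM was apart from KCNG1 at 17.1 ± 0.7 in every NMP-L library, while KCNK5 (14.0 to 15.3 TPM) and KCNS3 (12.9 to 13.9 TPM) nearly met. KCNK12, KCNK1 and KCND1 were among the 10 most abundant in hESCs alone, and KCNMB4, KCNAB2 and KCND2 in NMP-L cells alone.

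Auxiliary subunits were as often higher as lower, with 3 each among 9 tested of 17. This is close to the 29.1% higher and 26.7% lower of all tested genes, so the split is not particular to the class. Those of the Kv1 channels, which are beta subunits related to aldo-keto reductases, moved apart. KCNAB2 had 134, 139 and 133 counts in hESCs and 350, 321 and 366 in NMP-L cells (1.12 ± 0.11, adjusted p = 5.5e-06), from 3.71 ± 0.12 to 8.46 ± 0.45 TPM. KCNAB3 had 33, 22 and 34 and then 10, 8 and 5 counts (-2.16 ± 0.35, adjusted p = 3.0e-04). KCNAB1 was low, with 13, 12 and 10 and then 6, 4 and 6 counts (-1.34 ± 0.38, adjusted p = 0.011), a call lost with DESeq2 (adjusted p = 0.075). KCNAB2 was thus the main beta subunit in both groups. KCNMB4, the neuronal beta subunit of the KCNMA1 channel, had 306, 329 and 299 and then 521, 505 and 544 counts (0.52 ± 0.10, adjusted p = 9.2e-04).

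The single-pass KCNE subunits also moved apart. KCNE5 had 55, 69 and 71 counts in hESCs and 28, 23 and 20 in NMP-L cells (-1.68 ± 0.23, adjusted p = 7.7e-05). KCNE3 had 41, 39 and 38 and then 81, 60 and 83 counts (0.69 ± 0.19, adjusted p = 0.0094). The other KCNE genes, among them KCNE1, the partner of KCNQ1 in the heart, had at most 4 counts in any library. The tested calcium-binding partners of Kv4 channels, KCNIP2 and KCNIP3, did not pass the test (-0.48 ± 0.24 and -0.54 ± 0.29, adjusted p = 0.11 and 0.13), and neither did KCNMB3 (-0.42 ± 0.23, adjusted p = 0.13).

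The 40 members that were not tested were low in both groups. Of these, 9 had 0 counts in every library, which allows up to 3 counts or 0.154 CPM: KCNA10, KCND3, KCNE1B, KCNJ13, KCNJ15, KCNK16, KCNK18, KCNU1 and KCNV2. With those 9, 18 members had at most 3 counts in any library. Over all members 60 had a mean under 1 TPM, 36 at least 1 TPM and 6 at least 10 TPM. In a few of the untested genes the counts of the groups did not overlap, and 3 such genes were chosen here after their values were seen. How often this held among all untested genes was not counted, so the 3 are examples only. KCNK4, a relative of KCNK10, had 7, 8 and 15 counts in hESCs and 1, 0 and 0 in NMP-L cells. KCNA7 had 7, 8 and 18 and then 2, 3 and 0 counts. KCNA2 had 2, 3 and 5 and then 8, 14 and 16 counts.

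Some members lie within 100 kb of each other on GRCh37. On chromosome 12, KCNA6 (4918500 to 4922484) and KCNA1 (5019071 to 5027422), both on the plus strand, were both lower. On chromosome 6, KCNK5 (39156747 to 39197251) and KCNK17 (39266777 to 39282237), both on the minus strand, were lower, while KCNK16 beyond KCNK17 (39282474 to 39290744) had 0 counts in every library. On chromosome 11, KCNJ5 (128761251 to 128791058, plus strand) was higher and KCNJ1 (128706210 to 128737268, minus strand), untested, had 3, 0 and 3 counts in hESCs and 11, 9 and 14 in NMP-L cells. KCNJ10 on chromosome 1 (159968441 to 160039950) was lower and its neighbour KCNJ9 (160051328 to 160060353) had at most 6 counts. Annotated exons of KCNE5 and KCNJ14 overlap those of another counted gene on the same strand. Those of KCNAB2, KCNK12, KCNQ5, KCNIP2, KCNJ2, KCNMA1, KCNMB3 and KCNQ1, among other members, overlap counted genes on the opposite strand. Whether counting used the strand is not given in the sources used here, so reads of these genes and their partners may not be fully told apart.

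Genes that work with potassium channels or move potassium by other means were followed in a list of 27, of which 19 were tested, 7 of them higher and 7 lower, so that 14 differed, beside 55.8% of all genes tested. Genes of the potassium-importing sodium pump were among them. Its beta subunit ATP1B3 was at 182.8 ± 4.3 and 216.1 ± 8.2 TPM and did not pass the test (0.14 ± 0.07, adjusted p = 0.11), though it did with library size as the only scaling (0.22) and on log2 TPM (0.24). ATP1B2, the glial beta subunit, had 1120, 1200 and 1310 counts in hESCs and 442, 301 and 441 in NMP-L cells (-1.85 ± 0.12, adjusted p = 2.7e-07). ATP1B1, the widespread beta subunit, had 1308, 1140 and 1211 and then 1898, 2179 and 2360 counts (0.59 ± 0.10, adjusted p = 4.3e-04). ATP1B2 and ATP1B1, at 43.2 and 60.5 TPM in hESCs, were at 13.0 and 97.1 TPM in NMP-L cells.

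**Figure D4:**
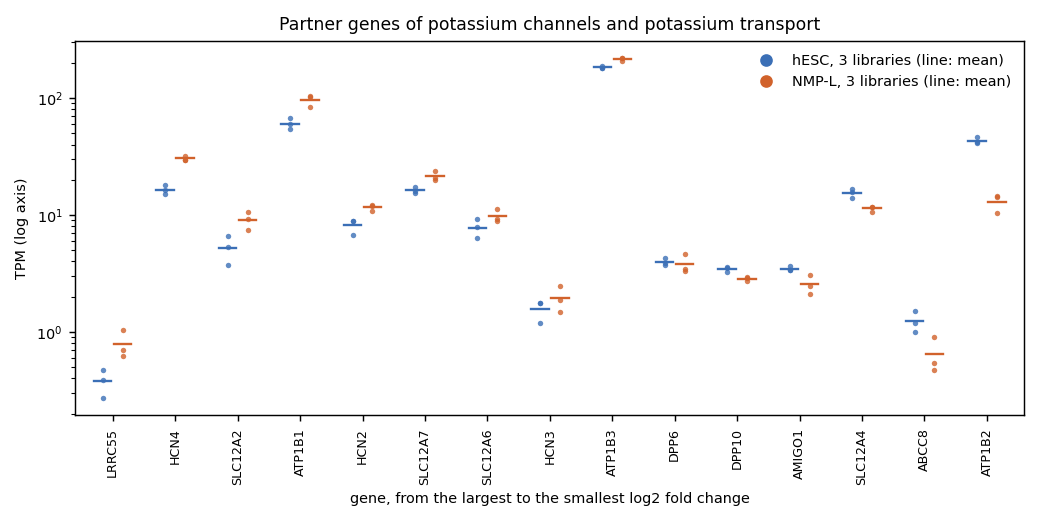
TPM (y axis, log scale) of 15 of the 19 tested partner genes, ordered from the largest to the smallest log2 fold change. Each dot is 1 of 3 libraries of hESCs (blue) or NMP-L cells (orange) and the line their mean. ATP1B3 is the highest gene shown, and ATP1B2 lies lower in NMP-L cells (13.0 TPM) than in hESCs (43.2 TPM).

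Among the remaining partners, HCN4, a pacemaker channel that passes sodium and potassium, had 1080, 1070 and 1231 counts in hESCs and 2449, 2134 and 2279 in NMP-L cells (0.79 ± 0.09, adjusted p = 2.2e-05), reaching 30.5 ± 1.5 TPM. The chloride cotransporter SLC12A2, which brings potassium in, was higher (0.71 ± 0.18, adjusted p = 0.0047), and of those that export it SLC12A4 was lower (-0.54 ± 0.11, adjusted p = 0.0011) and SLC12A7 higher (0.31 ± 0.10, adjusted p = 0.021). SLC12A7, HCN2 (0.40 ± 0.14), LRRC55 (0.95 ± 0.30), DPP10 (-0.34 ± 0.12) and AMIGO1 (-0.53 ± 0.19) passed the test but lost their calls when NMP-L replicate 1 was left out (0.22, 0.35, 0.68, -0.31 and -0.52 without it). That left 9 partner genes called instead of 14. Each of these calls was lost in other settings as well. SLC12A7, HCN2 and DPP10 lost theirs with the replicate block, and LRRC55 without hESC replicate 3. DPP10 and AMIGO1 also lost theirs with DESeq2 and on log2 TPM.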

How the data were processed

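RSEM expected counts and TPM values per gene, deposited by the authors in 1 table, were used. Submitters' processing notes name cutadapt 1.9.1, STAR 2.5.2a, RSEM 1.3.0, DESeq2 1.12.3 and hg19, and the annotation is not given in the sources used here. Reads were single-end, of 76 bases. Expected counts were rounded, and edgeR 4.0.16 was run on them under R 4.3.3 (filterByExpr with a minimum count of 10, TMM, glmQLFit, glmQLFTest, adjusted p under 0.05). SE is the size of the log2 fold change divided by the square root of F. Fractional counts, from reads shared between genes, occurred in 8.44% of genes and 5 members. TPM served for levels between genes. Alternatives used DESeq2 1.42.0 and limma 3.58.1 (log2 of TPM plus 0.1). Positions came from GENCODE on GRCh37, which placed 94 of the 96 members. On simulated data 84 of 98 genes changed 2-fold were called, 98 of 99 changed by 2 on the log2 scale, and 21 of 15159 unchanged ones. The simulation changed only 200 genes, drawn from all levels, whereas 55.8% of tested genes differed in the data. Members were also counted less than most genes, so these rates do not carry over to them.

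The members and lists were chosen with earlier results of these data known. Genes were named if they changed by at least 2-fold and passed the test, were among the 10 highest in mean TPM or the highest of their class. Partner genes were named if past 2-fold or among the 2 highest. Other tested members and called partners were added, and low members given as examples were chosen after their values were seen. Sequences of 25 members without an entry in the promoter table are not shown. Single values of some members and partner genes are not reported here.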

Additional observations from a re-analysis of the deposited data

How the results depend on the processing

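Across 14 alternatives, 45 of 59 genes followed stayed on the same side of 0 and of the threshold, and none changed direction. Potassium channel genes that differed numbered between 31 (at least 10 counts in every library) and 50 (no filter beyond 1 count in total), with 39 by DESeq2. With at least 10 counts in every library 17 members differed by at least 2-fold instead of 28, since 11 called members, among them KCNH1, KCNA1 and KCNJ5, were not tested. With 1 library left out in turn, 40 to 44 members differed, 13 to 16 higher and 25 to 28 lower, 28 to 31 by at least 2-fold. Partner genes that differed numbered 9 to 13, and all genes 7255 to 8891. Library size alone and log2 TPM moved the median of all genes to 0.10 and 0.12, and that of the members to -0.42 in both. With the replicate number as a replicate block, 40 members (14 higher, 26 lower), 11 partner genes and 7560 genes in all differed, and KCND2 was among the calls lost. Same-numbered libraries deviated with correlations of -0.37, -0.06 and -0.13, so the numbers were not taken to pair them.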

Other observations

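Outside the 96 members, the table lists 21 rows whose symbols also begin with KCN, most of them antisense transcripts, and 2 of these could be tested. KCNQ1OT1, the long noncoding RNA that lies antisense within KCNQ1, had 95, 128 and 113 expected counts in hESCs and 82, 62 and 114 in NMP-L cells (log2 fold change -0.62 ± 0.19, adjusted p = 0.016). KCNMB2-AS1 had 29, 32 and 26 and then 19, 25 and 26 counts and did not pass the test (-0.54 ± 0.25, adjusted p = 0.090). Reads of KCNQ1OT1 and KCNQ1 may not be fully told apart without the strand.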
